A study of Mus musculus with 10 samples.

Results

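Transcripts of 10 chromatin remodelling genes outside SWI/SNF were followed in mouse fibroblasts that had lost a SWI/SNF subunit. The members were the CHD genes Chd1, Chd3, Chd4, Chd7 and Chd8, the ISWI genes Smarca1 and Smarca5, and Smarcad1, Ino80 and Ruvbl1 of the INO80 and SWR families. They were chosen by name, with earlier results of these data known, and every probe set listed under 1 of those symbols alone was taken. This gave 17 of the 22690 probe sets on the array, for 9 of the 10 genes. Chd3 had no listed probe set, and Chd7 had 1 that lay at background. The question was whether transcripts of these remodellers are higher when SWI/SNF is impaired, as compensation would require at the RNA level.

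Chromatin remodellers are motors that use ATP to slide, evict or exchange nucleosomes, and they fall into families that share a helicase-like ATPase of the SNF2 type. SWI/SNF mainly opens chromatin. CHD and ISWI enzymes often space nucleosomes or act within repressive complexes such as NuRD, while INO80 and SWR enzymes exchange histone variants. Ruvbl1 is an AAA+ ATPase of a different kind that is shared by INO80 and SWR-type complexes.

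The cells were primary mouse embryonic fibroblasts (MEFs), connective tissue cells, taken from E13.5 embryos on a mixed C57BL/6 and 129 background. There were 3 arrays of wild type (WT) cells, 3 of Snf5-/- cells, which lack the core subunit encoded by Smarcb1, and 4 of Brg1-/- cells, which lack the ATPase encoded by Smarca4. The labels of all 10 samples, WT included, describe Cre delivered by retrovirus and selection with puromycin at 2.5 ug/ml. Whether replicates came from separate embryos or cultures is not stated there, and p-values reflect no more than how these arrays varied, which may be technical. Their small number limits the precision of every value. In bulk RNA, fewer cells expressing a gene and less RNA per cell cannot be told apart.

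Array brightness differed between the groups. In WT the median deposited intensity of an array was 208 ± 22.6 (SD, n = 3). Snf5-/- arrays were dimmer, at 173 ± 14.3 (SD, n = 3), and Brg1-/- arrays dimmer still, at 156 ± 12.1 (SD, n = 4). As deposited, the median log2 change over all tested probe sets was -0.30 for Snf5-/- and -0.47 for Brg1-/-, and quantile normalization brought it to -0.01 and 0.0026. Levels and changes below are quantile-normalized unless the deposited scale is named. The targeted transcripts were low where the labels place the loss. Smarcb1 fell by 1.37 ± 0.11 (SE, log2) in Snf5-/- and Smarca4 by 2.10 ± 0.14 in Brg1-/- (limma adjusted p = 3.32e-05 and 4.20e-06, brighter probe set of each). In Snf5-/- Smarcb1 still measured 298 against 773 in WT, and in Brg1-/- Smarca4 measured 516 against 2181 (means). The dimmer probe set also passed for Smarca4 (adjusted p = 2.32e-05) and not for Smarcb1 (0.201), where it overlapped with WT. The brighter Smarcb1 probe set was higher in Brg1-/-, by 0.45 (adjusted p = 0.00993), but not on the deposited scale (-0.08, 0.736). All 10 fibroblast markers lay above background on every array, but their levels were not constant. At an adjusted p below 0.05 (limma), 2 were higher and 1 lower in Snf5-/-, and 2 were higher and 2 lower in Brg1-/-. Among all tested probe sets, 16.7% and 25.2% were called. S100a4 fell by 1.43 in Snf5-/- and 2.44 in Brg1-/-, and Col3a1 rose by 1.86 and 1.13 (log2). Markers of other cell types were also measured. Of 8 epithelial markers, 6 lay above background on every WT array and 4 on every array of each mutant, while Epcam lay at background throughout and Cdh1 in the mutants. Their summed intensity was 1159 to 1410 in WT, 997 to 1586 in Snf5-/- and 782 to 974 in Brg1-/-. Of the 5 that were tested, 0 were called in Snf5-/- and 2 in Brg1-/-. In Brg1-/- the keratin gene Krt18 fell by 1.67 ± 0.39 and the tight junction gene Cldn4 fell by 2.15 ± 0.54 (SE, log2; limma adjusted p = 0.00849 and 0.0122). Krt8, Krt19 and Krt5 did not pass there (adjusted p = 0.321, 0.589 and 0.991). Of 6 endothelial markers, 2 lay above background on every array of each group, while Tie1 lay at background throughout and Pecam1 in the mutants. Tek rose by 1.41 in Snf5-/- and 1.89 in Brg1-/- (log2; limma adjusted p = 0.0122 and 0.000975). Kdr fell by 0.79 in Brg1-/- (adjusted p = 0.0110) and did not pass in Snf5-/- (0.0840). Of 10 leukocyte markers, 8 lay above background on every array. Their summed intensity was 2481 to 5304 in WT, 2236 to 5638 in Brg1-/-, and 2683, 10477 and 2978 in the 3 Snf5-/- replicates. Of the 9 that were tested, 1 was called in each mutant. This was C1qb, which rose by 1.85 in Snf5-/- and 1.39 in Brg1-/- (log2; limma adjusted p = 0.00842 and 0.0163). Mitosis genes moved with genotype. The summed intensity of 11 of 12 listed genes was 4484 to 5659 in WT, 8466 to 12763 in Snf5-/- and 15379 to 20235 in Brg1-/-, and the part of these genes and of the other markers in the results that follow was not tested.

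Few remodeller probe sets were called, and the share called lay near or below that of the array as a whole. A probe set was tested if it reached the 40th percentile of its array on 3 or more arrays, which 14 of the 17 did, and was called at an adjusted p below 0.05. In Snf5-/- against WT, Chd8 rose and 1 of 3 Chd4 probe sets fell, which is 2 of 14 or 14.3%, where 16.7% of all 14506 tested probe sets were called (8.71% higher and 8% lower). In Brg1-/- against WT, Chd8 alone rose, which is 1 of 14 or 7.14%, where 25.2% were called (13% higher and 12.1% lower). The median change of the 14 was -0.04 and -0.03. An unadjusted p under 0.05 (limma) was found for 3 of the 14 in Snf5-/- and 6 in Brg1-/-. Of all 14506 tested probe sets, 4496 and 5464 had such a p, so a lack of calls does not show a lack of change. As deposited, 0 of the 14 rose and 2 fell in Snf5-/-, where 20.5% of all tested probe sets were called (2.81% higher and 17.7% lower). By the same scale 0 rose and 6 fell in Brg1-/-, where 46% were called (3.21% higher and 42.8% lower). Counted by arrays that did not overlap, 4 of the 14 stood apart from WT in Snf5-/- (1 higher and 3 lower), where 34.8% of all tested probe sets did (17.3% higher and 17.5% lower). In Brg1-/- 5 did (2 higher and 3 lower), where 38% of all did (19.2% higher and 18.7% lower). The largest fitted rise of any member was that of Smarca1, which was too dim for the filter and is described with the ISWI genes. Both mutants were set against the same WT arrays, so their values are not independent.

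**Figure D1:**
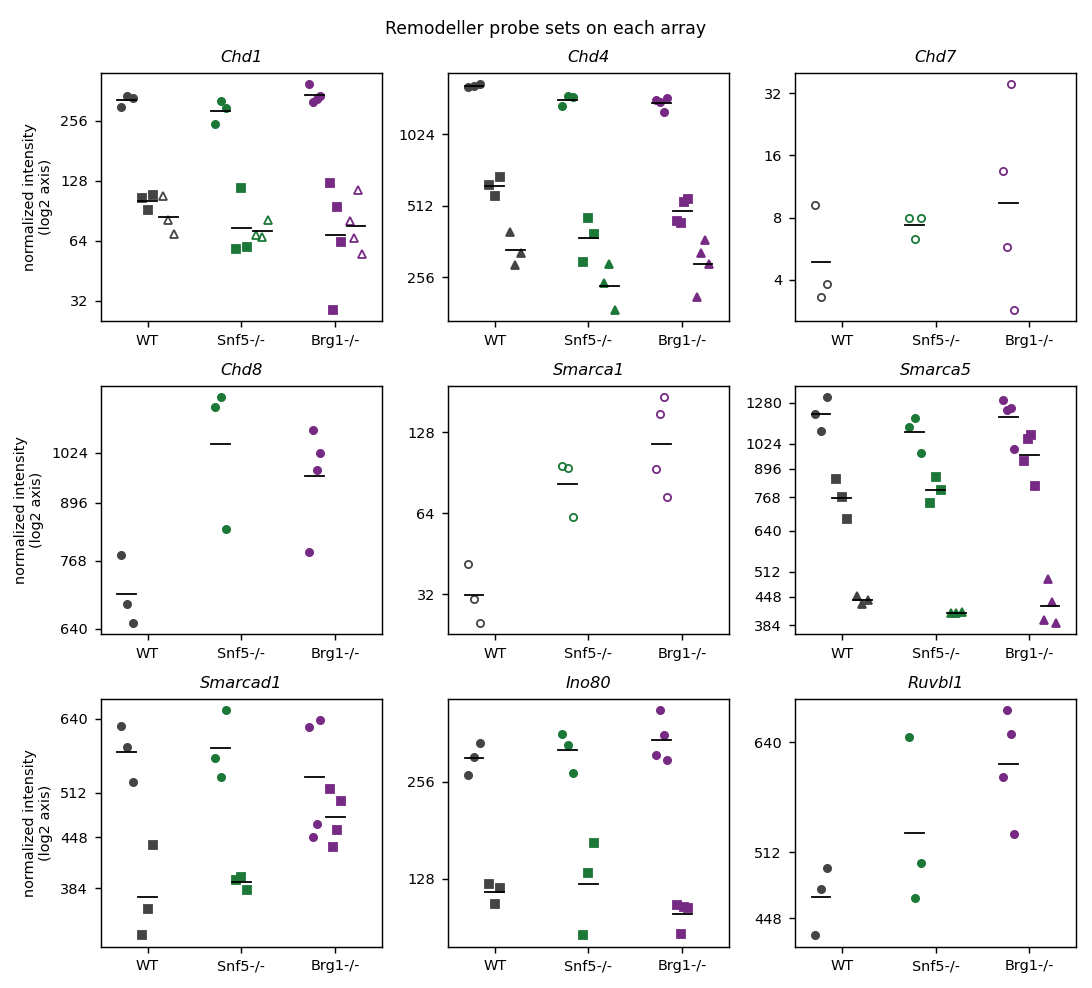
Quantile-normalized intensity (log2 axis) of the 17 remodeller probe sets on each array, in 1 panel per gene with axes of their own. Each point is 1 array, circles, squares and triangles mark the probe sets of a gene from brightest to dimmest, open symbols mark probe sets below the filter, and bars are geometric means. The WT arrays of Chd8 and Smarca1 lie below all mutant arrays, while those of Smarca5 and Smarcad1 overlap with them for most probe sets.

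The sequences that follow are shown because they belong to the members whose levels differed between groups. They are the 250 bases before an annotated start of Chd4, Chd8 and Smarca1, from RefSeq on GRCm38.p6, written 5′ to 3′ on the strand of the gene. Capitals mark matches on either strand to the GC box GGGCGG and the CCAAT box CCAAT, which did not overlap each other.
Chd4 (chr6:125095731-125095980, + strand): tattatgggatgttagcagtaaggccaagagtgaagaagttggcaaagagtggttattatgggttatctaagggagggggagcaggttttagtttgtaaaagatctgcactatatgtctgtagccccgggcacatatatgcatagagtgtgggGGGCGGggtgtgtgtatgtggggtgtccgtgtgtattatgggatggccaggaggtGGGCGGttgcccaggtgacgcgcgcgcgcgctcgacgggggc
Chd8 (chr14:52257761-52258010, - strand): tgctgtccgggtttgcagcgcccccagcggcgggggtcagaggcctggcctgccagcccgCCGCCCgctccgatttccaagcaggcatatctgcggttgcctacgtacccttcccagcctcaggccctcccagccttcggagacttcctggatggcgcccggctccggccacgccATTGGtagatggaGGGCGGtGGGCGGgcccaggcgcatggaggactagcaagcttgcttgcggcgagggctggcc
Smarca1 (chrX:47892614-47892863, - strand): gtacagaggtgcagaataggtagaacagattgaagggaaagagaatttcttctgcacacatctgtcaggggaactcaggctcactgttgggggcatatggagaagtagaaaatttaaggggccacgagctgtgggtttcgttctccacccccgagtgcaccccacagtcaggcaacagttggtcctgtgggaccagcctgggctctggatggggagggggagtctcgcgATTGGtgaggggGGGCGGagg
The table held windows for 7 of the 10 members. A GC box match occurs in 32.7% and a CCAAT match in 33.9% of all 32851 windows of this length. The 3 windows differ in CpG content. Chd8 holds 20 CpG dinucleotides, more than 82.1% of all windows, the Chd4 window shown holds 12 and Smarca1 holds 6, which is the median of all windows. A second annotated start of Chd4 gives an overlapping window, chr6:125095913-125096162, that is not printed and holds 23 CpG dinucleotides, 3 GC box matches and 1 CCAAT match. None of the 3 printed windows held a match to the E-box (CACGTG, in 6.02% of windows), the ETS motif (CCGGAAG, in 6.91%), the AP-1 motif (TGANTCA, in 6.75%) or the longer NRF1 motif (in 0.782%), on either strand.

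Chd4, the ATPase of the NuRD deacetylase complex, was lower in Snf5-/-. On probe set 1436343_at the WT arrays measured 623, 562 and 675, the Snf5-/- arrays 296, 452 and 389, and the Brg1-/- arrays 439, 433, 528 and 546. Every mutant array of either genotype lay below every WT array. Its change was -0.73 ± 0.17 (SE, log2) in Snf5-/- (limma adjusted p = 0.0127, 3 against 3 arrays), with 95% limits of -1.09 and -0.36. In Brg1-/- it was -0.35 ± 0.16 and did not pass (adjusted p = 0.123). The Snf5-/- call was lost without WT replicate 3 (adjusted p = 0.0573) and kept when any other single array was left out. As deposited, the same probe set measured 758 ± 145 (SD, n = 3) in WT, 374 ± 84.3 (n = 3) in Snf5-/- and 429 ± 75.7 (n = 4) in Brg1-/-, and was called lower in both (adjusted p = 0.00453 and 0.00507). Its deposited changes were -1.03 and -0.82 (log2), where the median of all tested probe sets was -0.30 and -0.47. On that scale 17.7% of all tested probe sets were called lower in Snf5-/- and 42.8% in Brg1-/-.

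The other Chd4 probe sets pointed the same way by smaller amounts. The brightest, 1451295_a_at, measured 1615, 1630.4 and 1659 in WT, 1340.1, 1490.3 and 1474 in Snf5-/-, and 1426, 1404, 1271 and 1452 in Brg1-/-. Its groups did not overlap with WT either, but the changes of -0.19 ± 0.09 and -0.24 ± 0.09 (SE, log2) did not pass (adjusted p = 0.200 and 0.0706). The dimmest, 1438476_a_at, changed by -0.50 ± 0.23 and -0.19 ± 0.21, overlapped with WT in both mutants and did not pass (adjusted p = 0.156 and 0.554). In Brg1-/- the brightest passed as lower on the deposited scale and with array medians subtracted (adjusted p = 0.00169 and 0.0226), and the dimmest passed on the deposited scale (0.0454). In Snf5-/- the dimmest also passed as lower on the deposited scale, at -0.77 (adjusted p = 0.0430), with all its arrays below WT. These deposited changes include the shift of all tested probe sets on that scale, with medians of -0.30 in Snf5-/- and -0.47 in Brg1-/-. With the 3 probe sets averaged, an alternative chosen after seeing the data, Chd4 changed by -0.47 ± 0.13 in Snf5-/- (adjusted p = 0.0229) and -0.26 ± 0.12 in Brg1-/- (adjusted p = 0.122, or 0.00414 on the deposited scale).

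Chd8, a CHD enzyme that binds beta-catenin and is tied to Wnt target genes, was higher in both mutants after normalization. Its only probe set measured 779.6, 683 and 651 in WT, 1157, 1188 and 837 in Snf5-/-, and 785, 1088, 978 and 1024 in Brg1-/-. All mutant arrays lay above all WT arrays, although the lowest Brg1-/- array exceeded the highest WT array by little. The rise was 0.58 ± 0.16 (SE, log2; 1.49-fold) in Snf5-/- and 0.45 ± 0.15 (1.37-fold) in Brg1-/- (limma adjusted p = 0.0308 and 0.0462, 3 WT, 3 Snf5-/- and 4 Brg1-/- arrays). Of all tested probe sets, 9.82% rose more in Snf5-/- and 15.6% in Brg1-/-.

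The rise of Chd8 depended on how arrays were scaled, and its calls also on how they were fitted. Before normalization Chd8 measured 1171, 776 and 692 in WT, 1128, 1098 and 924 in Snf5-/-, and 648.5, 882, 899 and 884 in Brg1-/-, so that WT replicate 1 exceeded every mutant array. The log2 change there was 0.29 (adjusted p = 0.355) in Snf5-/-, and in Brg1-/- its sign turned, to -0.061 (adjusted p = 0.820). With array medians subtracted it was 0.55 (adjusted p = 0.0521) and 0.35 (0.144). The Snf5-/- call was also lost without WT replicate 2 or 3 or without Snf5-/- replicate 1 or 2, with adjusted p between 0.0800 and 0.112. The Brg1-/- call was lost when any single WT array was left out and without Brg1-/- replicate 2, 3 or 4 (adjusted p between 0.0583 and 0.152). On the normalized values, the Snf5-/- call was lost with only the 2 groups compared (0.0510) and without the intensity trend in the fit (0.0503). The Brg1-/- call was lost without the filter (0.0592) and without that trend (0.0695).

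Chd1, which travels with elongating RNA polymerase, and Chd7, the gene of CHARGE syndrome, gave no call. On the brightest Chd1 probe set, 1420990_at, WT measured 301, 339.8 and 331, Snf5-/- 246, 321 and 294, and Brg1-/- 388, 318, 327 and 342. The groups overlapped, and the changes of -0.18 and 0.08 (log2) had 95% limits of -0.50 to 0.14 in Snf5-/- and -0.21 to 0.38 in Brg1-/- (limma adjusted p = 0.433 and 0.695). The Brg1-/- sign turned on the deposited scale, to -0.34 (adjusted p = 0.139). The second Chd1 probe set, 1450077_at, varied widely within groups, from 28.8 to 125 in Brg1-/- alone, and its changes of -0.45 and -0.57 did not pass (adjusted p = 0.600 and 0.425). The third Chd1 probe set, between 55.2 and 114, and that of Chd7, between 2.87 and 35.3, were below the filter. Chd7 lay at or below background on all 10 arrays, so no fold is given for it.

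**Figure D2:**
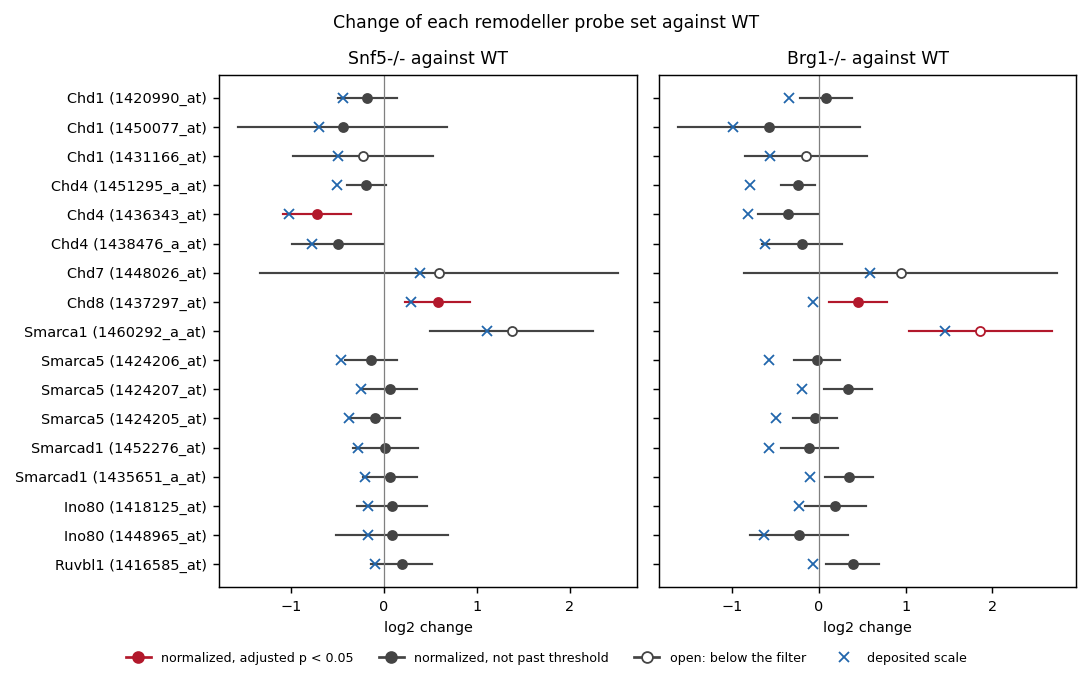
Log2 change of each remodeller probe set in Snf5-/- (left) and Brg1-/- (right) against WT, from the limma fits. Circles are quantile-normalized changes with 95% intervals, red past the threshold and open where the probe set was below the filter and comes from the fit without it, and crosses are changes on the deposited scale. Those of Chd7 rest on values at or below background on every array. Chd8 is past the threshold in both panels, at 0.58 and 0.45, and its cross in Brg1-/- lies just below 0, while Smarca1 is the member farthest to the right among all those drawn, at 1.38 and 1.86, on both scales.

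The ISWI genes behaved differently from each other. Smarca1, which encodes SNF2L, the ISWI ATPase tied to differentiating cells and neurons, was dim in WT and brighter in both mutants. It measured 41.5, 30.7 and 25.1 in WT, 96.2, 94.3 and 61.7 in Snf5-/-, and 93.2, 149, 172 and 73.7 in Brg1-/-. All 7 mutant arrays lay above all 3 WT arrays. The same held on the deposited scale, where WT measured 51.6, 35.2 and 29.1, Snf5-/- 91.3, 91.1 and 64.1, and Brg1-/- 77.3, 123.5, 162.8 and 72.6. Smarca1 was below the filter and so had no place in the counts above.

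In the fit with no filter (22626 probe sets), Smarca1 rose by 1.86 ± 0.38 (SE, log2; 3.63-fold) in Brg1-/- (limma adjusted p = 0.00598, 3 against 4 arrays), with 95% limits of 1.04 and 2.68. Only 1.44% of those probe sets rose more. The change in Snf5-/- was 1.38 ± 0.40 (2.60-fold) and did not pass (adjusted p = 0.0526). Deposited values gave changes of 1.46 (adjusted p = 0.0137) in Brg1-/- and 1.11 (0.107) in Snf5-/-. The Brg1-/- call held without any single array, with adjusted p between 0.00442 and 0.0301. Of the 3 WT arrays, 1 lay at or below background, which was taken as the brightest of 27 bacterial control probe sets and ranged from 26.7 to 57.4 between arrays, so the size of the fold rests partly on values near background.

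Smarca5, which encodes SNF2H, the widely expressed ISWI ATPase of most nucleosome-spacing complexes, gave no call. The brightest of its 3 probe sets, 1424206_at, measured 1201, 1097 and 1317 in WT, 1124, 1179 and 976 in Snf5-/-, and 1302, 1230.4, 1242 and 994 in Brg1-/-. The groups overlapped. Its changes were -0.14 in Snf5-/- (95% limits -0.42 to 0.14) and -0.02 in Brg1-/- (-0.28 to 0.25), with limma adjusted p of 0.497 and 0.926. Of the other Smarca5 probe sets, 1424207_at stood at 682 to 846 in WT, 743 to 856 in Snf5-/- and 815 to 1073 in Brg1-/-, a change of 0.34 ± 0.13 in Brg1-/- that did not pass (adjusted p = 0.0695) and turned to -0.19 on the deposited scale. It passed without Brg1-/- replicate 4 (adjusted p = 0.0262). The dimmest, 1424205_at, changed by -0.10 and -0.04 (adjusted p = 0.634 and 0.812). Its Snf5-/- arrays, at 410 to 412, all lay below the WT arrays, at 430 to 449, while its Brg1-/- arrays overlapped with WT. From deposited values 1424206_at and 1424205_at passed as lower in Brg1-/-, at -0.57 and -0.50 (adjusted p = 0.0171 and 0.0344), close to the shift of -0.47 over all tested probe sets.

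Of the INO80 and SWR genes, none passed the threshold in either mutant after normalization (limma; 2 of 5 probe sets had an unadjusted p under 0.05 in Brg1-/- and 0 in Snf5-/-). Of all 14506 tested probe sets, 5464 had such a p in Brg1-/- and 4496 in Snf5-/-. Ruvbl1, known as Pontin, came nearest to the threshold. It measured 433, 475 and 496 in WT, 646, 467 and 501 in Snf5-/-, and 597, 683, 651 and 532 in Brg1-/-. The Brg1-/- arrays all lay above WT, and the change of 0.39 ± 0.14 (SE, log2; 1.31-fold, 95% limits 0.09 to 0.69) did not pass (adjusted p = 0.0592). It passed with only the 2 groups compared in the fit (0.0329) and without Brg1-/- replicate 4 (0.0373), Snf5-/- replicate 1 (0.0348) or Snf5-/- replicate 2 (0.0479). In the fit with probe sets of a gene averaged, which tests fewer features, it passed as well (adjusted p = 0.0466). Its sign turned before normalization, to -0.07 (adjusted p = 0.773). In Snf5-/- the change was 0.19 (adjusted p = 0.422).

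Smarcad1, which helps restore silent chromatin after replication, gave probe sets whose changes differed in sign in Brg1-/- after normalization. Probe set 1435651_a_at measured 333 to 437 in WT, 383 to 398 in Snf5-/- and 435 to 518 in Brg1-/-, a change of 0.35 ± 0.13 (SE, log2) in Brg1-/- that did not pass (limma adjusted p = 0.0621; 0.0370 without WT replicate 3; -0.10 on the deposited scale). The brighter 1452276_at measured 529 to 626, 537 to 656 and 449 to 638, a change of -0.11 ± 0.15 (adjusted p = 0.643) that passed as lower on the deposited scale (-0.58, adjusted p = 0.0386). In Snf5-/- both changed by 0.06 or less.

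Ino80, the motor of the INO80 complex, also gave probe sets that disagreed. The brighter, 1418125_at, measured 269, 305 and 337 in WT, 361, 334 and 272 in Snf5-/-, and 309, 427, 358 and 299 in Brg1-/-, with overlapping groups and changes of 0.08 and 0.19 (log2, limma adjusted p = 0.791 and 0.431). The dimmer, 1448965_at, measured 123, 107 and 120.1 in WT, 85.3, 134 and 165 in Snf5-/-, and 106, 86.1, 105 and 104 in Brg1-/-. Its Brg1-/- arrays lay below WT by a small margin, and the change of -0.22 ± 0.26 did not pass (adjusted p = 0.574). Over the 10 arrays the levels of both probe sets had a Pearson r of -0.69, given as a description since the arrays share groups and labelling.

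Probe sets of 1 gene tracked each other only in part. Pearson r over the 10 arrays lay between 0.16 and 0.66 for the 3 pairs of Chd4, between 0.29 and 0.42 for Smarca5, between 0.0035 and 0.39 for Chd1, and was -0.16 for Smarcad1. The brightest Chd4 probe set was not the one called in Snf5-/-. For it, the genes with the most similar levels over the arrays were Cp, Dnaja4 and Ggct (r = 0.97, 0.97 and 0.94). For Chd8 they were Adamts4, Tcf25 and Dbi (r = 0.95, 0.94 and 0.94). These genes were picked for the highest r among all tested probe sets, over arrays that share groups, so r is a description only.

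The mutants were also compared with each other. Of the 14 tested remodeller probe sets, 0 passed in Brg1-/- against Snf5-/- (limma), where 4% of all tested probe sets were called (2.1% higher and 1.9% lower). An unadjusted p under 0.05 was found for 2 of the 14 and for 3236 of all 14506 tested probe sets. Before normalization the number that passed was again 0, where 3.54% were called (0.462% higher and 3.08% lower). Arrays of the mutants did not overlap for 1 of the 14, which was higher in Brg1-/-, where 17.4% of all tested probe sets did not (9.41% higher and 8% lower). The 2 with an unadjusted p under 0.05 were Chd4 1436343_at, 0.37 ± 0.16 (SE, log2) higher in Brg1-/- (adjusted p = 0.192, 95% limits 0.03 to 0.72), and Smarcad1 1435651_a_at, 0.28 ± 0.13 higher (adjusted p = 0.212). The difference was -0.12 for Chd8 (95% limits -0.45 to 0.21) and 0.48 for Smarca1 without the filter (-0.34 to 1.31; adjusted p = 0.565). These intervals leave room for differences in either direction for Chd8 and Smarca1, so alike responses are not shown.

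A list of 20 other ATPases of the SNF2 type, many of which act in replication, repair and heterochromatin, had 12 measured genes. It was also chosen with earlier results of these data known. Of the 12, 6 rose and 0 fell in Brg1-/-, where 13% of all tested probe sets rose and 12.1% fell. The list was counted by gene and these shares by probe set. With 1 probe set for each of 8403 genes, 1250 were higher and 1081 lower. The median log2 change of the 12 was 0.35, against 0.0026 over all tested probe sets. Before normalization that median was -0.08, against -0.47 over all. Rad54l, a motor of homologous recombination, rose by 1.78 ± 0.36 (SE, log2) from 69.4 ± 16.2 (SD, n = 3) to 235 ± 26.8 (n = 4). Ercc6l, which binds DNA bridges in mitosis, rose by 1.45 ± 0.17 from 153 ± 8.87 to 424 ± 71.5, and Atrx, which deposits histone H3.3 with Daxx, rose by 0.66 ± 0.15 (limma adjusted p = 0.004, 0.000135 and 0.00693). Rad54l and Ercc6l also rose on the deposited scale, where Atrx did not pass (adjusted p = 0.432) and the count was 2 higher and 1 lower, the latter being Ep400, named after its values were seen, where 3.21% of all tested probe sets were called higher and 42.8% lower. In Snf5-/- 2 of the 12 rose, namely Hltf, a fork-remodelling enzyme, by 0.81 ± 0.18 and Ercc6l by 0.67 ± 0.19 (adjusted p = 0.00915 and 0.0294), where 8.71% of all tested probe sets rose, and 0 were called on the deposited scale. Hells and Ercc6l were higher in Brg1-/- than in Snf5-/-, by 0.83 and 0.79 (adjusted p = 0.0226 and 0.0306), and neither passed on the deposited scale. Whether this list differs from the members was not tested. All 11 mitosis genes measured rose in both mutants after normalization, with medians of 1.02 and 1.83 (8 and 11 as deposited), and their part in the rises of Rad54l, Ercc6l and Hells was not tested.

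Partners of the members were called in Snf5-/- and not in Brg1-/- after normalization, where 16.7% and 25.2% of all tested probe sets were called. Partners were counted by gene and these shares by probe set. The difference between the mutants passed for 0 genes of the 3 partner lists (limma; 4 NuRD, 1 ISWI and 2 INO80, SRCAP and TIP60 genes had an unadjusted p under 0.05). Of all 14506 tested probe sets, 4496 had such a p in Snf5-/-, 5464 in Brg1-/- and 3236 between the mutants. Of 12 NuRD subunits, Rbbp7, a histone chaperone, rose by 0.39 ± 0.11 (SE, log2) in Snf5-/- and Gatad2a, which links NuRD's deacetylase and remodelling parts, fell by 0.44 ± 0.10 (limma adjusted p = 0.0291 and 0.0132), and in Brg1-/- 0 passed (4 at an unadjusted p under 0.05). Rbbp7 did not pass before normalization (0.03, adjusted p = 0.930). Of 6 measured ISWI partners of 9, Bptf, the large subunit of NURF, rose by 0.38 ± 0.10 in Snf5-/- (adjusted p = 0.0255, or 0.825 on the deposited scale) and 0 passed in Brg1-/- (1 at an unadjusted p under 0.05). Of 20 measured partners of INO80, SRCAP and TIP60 of 27, Ino80c fell by 1.10 ± 0.32 in Snf5-/-, from 226 ± 26.4 (SD, n = 3) to 114 ± 49.6 (n = 3; adjusted p = 0.0359), and 0 passed in Brg1-/- (2 at an unadjusted p under 0.05). The median log2 change of these 3 lists lay between -0.09 and 0.11 in both mutants. As deposited, 7 of 12 NuRD, 2 of 6 ISWI and 8 of 20 INO80, SRCAP and TIP60 genes were called lower in Brg1-/-, where 42.8% of all tested probe sets were.

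**Figure D3:**
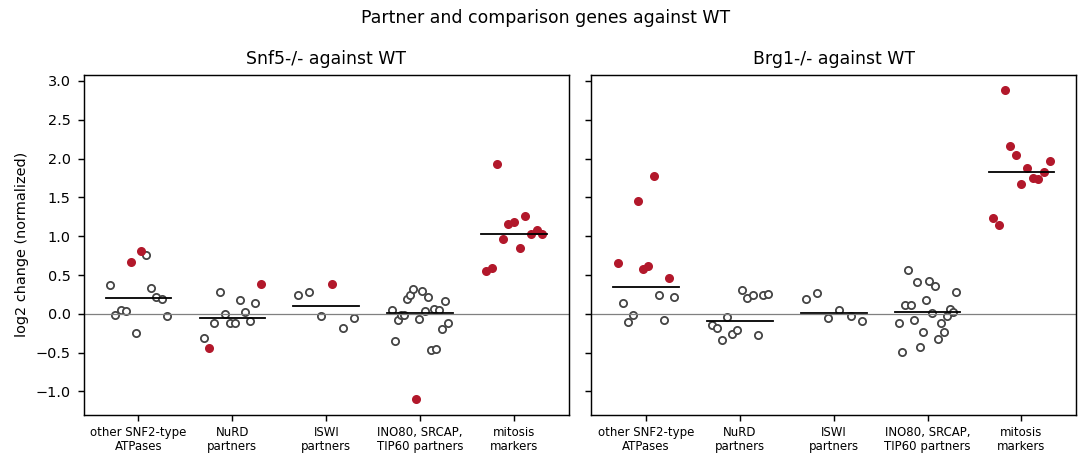
Quantile-normalized log2 change of each measured gene in 4 lists of related genes and in the list of mitosis genes, in Snf5-/- (left) and Brg1-/- (right) against WT. Each point is 1 gene by its brightest probe set, red points passed the threshold, open points did not, and bars are list medians. Points of the 3 partner lists lie around 0, while all 11 mitosis genes are red in both panels, with medians of 1.02 and 1.83.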

How the data were processed

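RNA of 10 MEF samples was hybridised to 1-colour Affymetrix arrays. The values the authors deposited are probe set intensity on a linear scale, made with MAS5 per the submitters' processing notes, while the MAS5 version and scaling target are not given in the sources used here. From these, log2 values were taken with no pseudocount and quantile-normalized (limma 3.58.1, R 4.3.3). Of 22690 probe sets, the 64 controls were left out, and 14506 passed the filter described with the results.

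Each probe set was fitted with a mean per group over all 10 arrays (leaving 7 residual degrees of freedom), with variances moderated by eBayes along an intensity trend. Tests were two-sided, with Benjamini-Hochberg adjustment over all tested probe sets within each of 3 comparisons and a threshold of 0.05. Symbols came from the platform annotation supplied with the array, where 20380 probe sets have 1 symbol, 691 several and 1606 none. A probe set listed under Ino80 and other genes was not used. In lists, the brightest probe set stood for a gene.

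The members and lists were chosen with earlier results of these data known. Named genes were all members, the targeted genes, up to 3 genes of each list with the smallest adjusted p among those called in a comparison, and the 3 genes closest by Pearson r to a called member's brightest probe set. Array brightness differs between groups, which is why the deposited scale stands beside the normalized one. Replicate numbers were not used to pair the samples in the main fit. For Smarca1 without the filter, the other scales and the left-out arrays were added after seeing the data. Alternatives were the scale, filter, pseudocount, probe set choice, model, replicate block and leaving out each array. The fit was tested on simulated data.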

Additional observations from a re-analysis of the deposited data

Results flagged for a closer look

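Among the 17 remodeller probe sets, 1 had a Brg1-/- array that stood apart from the other 3. On Ino80 probe set 1448965_at, Brg1-/- replicate 2 measured 86.1 against 104 to 106, and the gap to its neighbour was 0.902 of the range of the group on the log2 scale, above Dixon's 95% critical value for a group of 4. Chance gives about 1 such case in 20 groups. Groups of 3 arrays were not examined in this way. No remodeller probe set differed between the mutants past the threshold.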

How the results depend on the processing

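The counts of called probe sets moved with the scale and with the arrays used. On the deposited scale 407 were higher and 2570 lower in Snf5-/- against WT, 466 and 6209 in Brg1-/- against WT, and 67 and 447 in Brg1-/- against Snf5-/-, against 1264 and 1161, 1888 and 1762, and 304 and 276 after normalization. With 1 probe set per gene, which tests fewer features, 628 were lower in Snf5-/-, 1250 higher and 1081 lower in Brg1-/-, and 176 higher in Brg1-/- against Snf5-/-. Between the mutants 159 were higher with array medians subtracted, 123 higher and 97 lower with only the 2 groups compared, and 173 and 146 without the intensity trend. Leaving out 1 array gave 742 to 1331 higher and 599 to 1255 lower in Snf5-/-, 1315 to 2015 and 1186 to 1908 in Brg1-/-, and 61 to 422 and 67 to 382 between the mutants, where both lowest counts came without Brg1-/- replicate 3.

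Remodeller probe sets called in Snf5-/- were 1 in place of 2 with array medians subtracted, with 1 probe set per gene, with 2 groups and without the trend, and 0 to 2 with 1 array left out. In Brg1-/- they were 6 in place of 1 on the deposited scale, 2 with 2 groups, 0 without the trend, and 0 to 2 with 1 array left out. Between the mutants they were 0 with each array left out. On the deposited scale all 14 changes in Brg1-/- were negative, including the 6 that were positive after normalization. Of those 6, Chd8 was the one that had been called, and it turned to -0.061. In Snf5-/- 7 were positive after normalization and 13 negative on the deposited scale.

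For the other SNF2-type ATPases, the deposited scale gave 0, 3 and 0 calls in Snf5-/-, Brg1-/- and between the mutants against 2, 6 and 2, with 1 in Snf5-/- and 1 between the mutants both without the filter and with 2 groups. Leaving out 1 array gave 1 to 3, 4 to 6 and 0 to 2. NuRD calls in Snf5-/- were 1 in place of 2 with medians subtracted, with 2 groups and without the trend, and 0 to 3 with 1 array left out. In Brg1-/- they were 7 on the deposited scale and 1 with medians subtracted or 2 groups, in place of 0, and 0 to 2 with 1 array left out. Between the mutants they were 0 to 1. ISWI partner calls in Snf5-/- were 0 in place of 1 on the deposited scale and with medians subtracted, and 0 to 1 with 1 array left out. In Brg1-/- they were 2 on the deposited scale. INO80, SRCAP and TIP60 partner calls in Snf5-/- were 2 in place of 1 on the deposited scale, 0 without the filter and with 2 groups, and 0 to 1 with 1 array left out. In Brg1-/- they were 8 on the deposited scale, 1 with 2 groups and 0 to 1 with 1 array left out. The cause of these shifts was not tested.

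The replicate numbers were checked for pairing. Of 9 same-numbered pairs of arrays from different groups, 1 had deviations correlated above 0.1 (range -0.09 to 0.12, against -0.16 to 0.12 for other pairs). With so few arrays this cannot show whether same-numbered arrays share an origin. With the replicate block, 1214 probe sets were higher and 1165 lower in Snf5-/- and 1748 and 1619 in Brg1-/-. The block gave 1 NuRD call in Brg1-/- and 1 between the mutants, and 1 INO80, SRCAP and TIP60 call in Brg1-/-. Under the block the change of Chd8 in Brg1-/- was 0.42 (adjusted p = 0.0933), and that of Smarca5 1424207_at was 0.42 (adjusted p = 0.0436).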
